A study of Xenopus laevis with 30 samples.

Results

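The Hox genes of Xenopus laevis were read in animal cap explants, as 54 of the 49109 entries of the deposited count tables. An entry was taken when its name is hox, a cluster letter from a to d and a paralog number, with or without an L or S ending, and LOC108702519 was added because its RefSeq symbol is hoxb1.S. L and S mark the homeologs, the 2 copies of a gene that this allotetraploid frog can keep, one in each of its subgenomes. With the copies joined the entries stand for 34 genes, of which 20 have both copies in the set. Cluster A has 16 entries, cluster B 12, cluster C 13 and cluster D 13. Paralog groups 1 to 2 have 8, group 3 has 8, groups 4 to 8 have 17 and groups 9 to 13 have 21. A further 9 entries are Hox genes only by their RefSeq symbol, fell outside this rule of names and serve as a comparison.

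Hox genes encode homeodomain transcription factors and lie side by side in clusters. Within a cluster the genes with low paralog numbers are active earlier and reach further toward the head, into the hindbrain, while those with high numbers act in the trunk and tail. Wnt signals push ectoderm that has been made neural by BMP antagonists toward posterior fates, and Cdx proteins, which respond to Wnt and FGF signals, are known activators of trunk Hox genes.

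All explants came from embryos that were given noggin mRNA, for a secreted BMP antagonist, together with wnt8 mRNA, for a Wnt ligand. This pairing turns cap ectoderm, which is otherwise fated to become epidermis, toward neural crest. The group called NW had received these mRNAs alone, and the group called NWS also an antisense morpholino against Sf3b4, a subunit of the spliceosome's SF3b complex. Injection took place at the 2-cell stage, caps were cut at stage 8 to 9, and culture lasted 8 hours. No group without the mRNAs and none with a control morpholino was analysed here, so Hox levels have no uninduced baseline. Each group was sequenced from libraries with ribosomal RNA removed (depleted) and from libraries without that step (undepleted), which gives 4 groups of 3 libraries. The extraction protocol speaks of individual explants, no source used here gives the number of explants behind a library, and p-values measure the spread between these libraries. Whether the depleted and undepleted libraries of a number share their RNA is not given either.

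The libraries differed widely in the depth left for most genes. LOC108705792 and ccdc50.L together took 19.3% to 88.3% of a depleted library and 48.8% to 95.2% of an undepleted one. Hox genes gave 14 to 686 counts in a depleted and 18 to 459 counts in an undepleted library. A floor of 3 counts corresponds to 0.268 to 7.58 CPM (counts scaled to TMM-normalised library sizes) in the depleted libraries and to 0.1105 to 2.76 CPM in the undepleted ones. The CPM scales of the preparations differ. NW library 3 had a normalised size of 11212044 on 3570364 counts depleted, and of 27149821 on 4273985 counts undepleted. CPM levels and floors are therefore comparable within a preparation only, and the lower undepleted floors are no sign of more depth. Floors and intervals here cover counting error only, and reads without molecular identifiers are not independent molecules. All 33 entries of a neural crest list had counts in both preparations. All 19 entries of an epidermis list had counts in the depleted libraries, 18 of them in the undepleted. Since both lists were detected in this way, these counts do not tell crest from epidermis.

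Of the libraries of a preparation, 2 carried Hox transcripts of nearly all paralog groups, and the others almost only those of groups 1 to 3. In NW library 1 the entries of groups 4 to 13 gave 64.5% of the 515 Hox counts of the depleted library (95% Clopper-Pearson interval 60.2% to 68.6%) and 68.4% of the 459 Hox counts of the undepleted one (63.9% to 72.6%). In NWS library 3 they gave 58.9% of 95 counts (48.4% to 68.9%) and 59.3% of 113 counts (49.6% to 68.4%). In NW library 3, which had more Hox counts than any other depleted library, they gave 0.583% of 686 counts (0.159% to 1.49%) and, undepleted, 1.76% of 454 counts (0.764% to 3.44%). NW library 2 had a share of 1.59% of 63 counts depleted and 2.63% of 38 undepleted. NWS library 1 had 3.57% of 28 counts and 9.43% of 53, and NWS library 2 had 0 of 14 and 0 of 18, with intervals that reach 23.2% and 18.5%. The split thus ran through both treatments, with 1 NW and 1 NWS library on one side, and it was the same in both preparations. In bulk samples a smaller number of cells with these transcripts and less RNA per cell cannot be told apart.

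**Figure D1:**
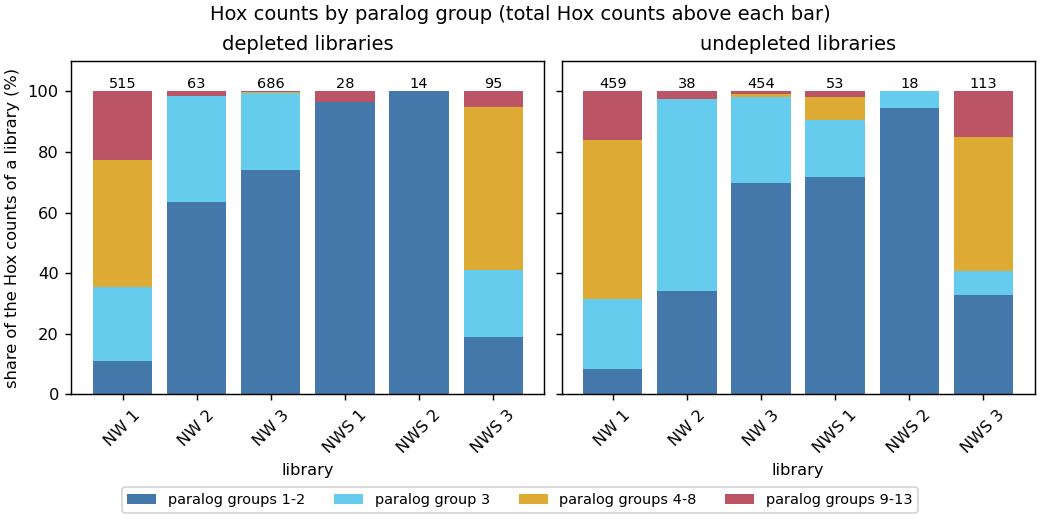
Share of each library's Hox counts (y axis, %) that came from paralog groups 1 to 2, 3, 4 to 8 and 9 to 13, for the 6 depleted and 6 undepleted libraries (x axis), with the total Hox counts above each bar. NW 1 and NWS 3 have most of their counts in groups 4 to 13 in both panels, and the other libraries have nearly all of theirs in groups 1 to 3.

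Depth differed between the libraries, and its part in the split was not tested. Entries with a count numbered 18287, 8577 and 23547 in the depleted NW libraries and 11832, 10939 and 15990 in NWS. Undepleted they numbered 17933, 8372 and 24009 in NW and 16369, 9128 and 18096 in NWS. At the level of groups 4 to 13 in NW library 1, the deeper NW library 3 would have held 1858 counts depleted and 1558 undepleted, and it held 4 and 8. NW library 2 would have held 65.6 and 62.4 and held 1 in each preparation. NWS library 1 would have held 84.5 and 285 and held 1 and 5, and NWS library 2 would have held 116 and 62.7 and held 0. NWS library 3, with 56 and 67 counts against 180 and 232, stood below NW library 1 and above all others. The high shares of groups 4 to 13 in NW library 1 and NWS library 3 did not rest on the rule of names or on any single cluster. Among the 9 Hox entries outside the rule, the 7 of groups 4 to 13 gave 92.0% and 98.8% of the counts in NW library 1 (depleted and undepleted), 56.3% and 92.0% in NWS library 3, and 0 in every other library. Those 0s stand beside only 1 to 112 counts of the outside entries in a library. With each cluster left out in turn the share in the depleted NW library 1 ran from 55.2% without cluster C to 73.3% without cluster B, and in the depleted NWS library 3 from 40.0% without cluster C to 66.7% without cluster B. Without cluster B, NWS library 1 kept only 2 depleted and 4 undepleted Hox counts, 1 and 3 of them from groups 4 to 13.

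Summed over all 54 entries, the depleted NW libraries stood at 257, 159 and 61.2 CPM (libraries 1, 2 and 3) and the NWS libraries at 54.9, 20.1 and 87.5 CPM. Undepleted, the sums were 83.9, 35.0 and 16.7 CPM for NW and 10.7, 16.5 and 27.9 CPM for NWS. The lower undepleted sums do not show a drop, since the CPM scales of the preparations differ. In NW library 1 the Hox counts were 515 depleted and 459 undepleted. They stood beside 557939 and 452462 counts outside the entries above 0.5% of a library. The groups overlapped in both preparations through NWS library 3. The log2 ratio of the NWS to the NW mean was -1.55 depleted and -1.30 undepleted, and it came to -1.02 and -0.49 when NW library 1 was left out. Groups 4 to 13 stood at 166, 2.53 and 0.357 CPM in the depleted NW libraries and at 1.96, 0 and 51.6 CPM in NWS. Means and SD were therefore 56.2 ± 94.9 and 17.8 ± 29.2 CPM (n = 3 each), each carried by 1 library.

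The line plot of paralog groups shows the shape of each library's profile. In the depleted NW library 1 the summed level was highest for group 3 at 62.9 CPM, and groups 4, 7 and 10 stood at 32.0, 32.0 and 30.0 CPM. Group 3 has 8 entries, groups 4 and 7 have 4 each and group 10 has 3. A sum thus depends in part on the number of entries, and its order is not one of levels per entry. The depleted NWS library 3 had its highest sums in groups 3 and 7, at 19.3 CPM each, with no count in group 4. NW libraries 2 and 3 were at or near 0 from group 4 on in both preparations. NWS libraries 1 and 2 had their highest sum in group 1. Group 13 was at 0 in all depleted libraries, and its 6 entries gave a single count in all, for hoxa13.L in the undepleted NWS library 3.

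**Figure D2:**
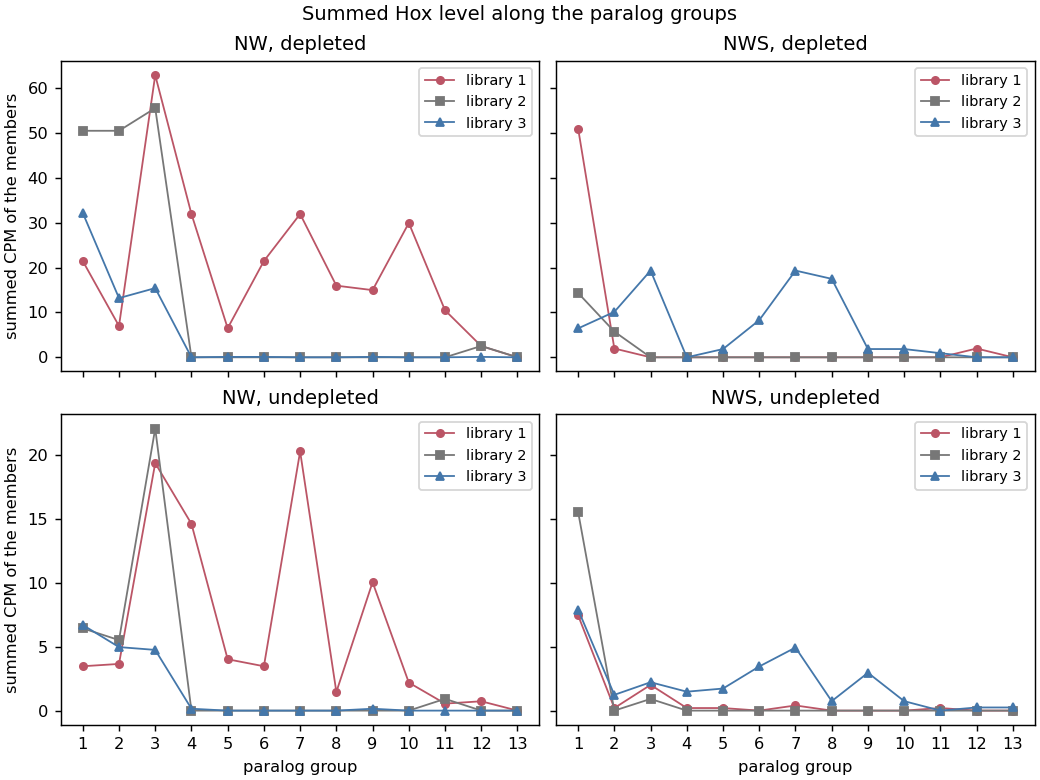
Summed CPM of the Hox entries (y axis) against paralog group 1 to 13 (x axis), 1 line per library, for NW and NWS in the depleted (top) and undepleted (bottom) preparation. The groups hold 2 to 8 entries each. The line of NW library 1 stays up to group 11 or 12. That of NWS library 3 is at 0 at group 4 depleted and falls to 1.84 CPM at groups 9 and 10. Undepleted it falls to 0.740 CPM at group 10. The other lines are at or near 0 from group 4 on. Those of NWS libraries 1 and 2 are at 0 already at group 3 depleted, and at 2.01 and 0.915 CPM there undepleted.

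Sums of the Cdx and ParaHox and the posterior mesoderm lists were highest in NW library 1 and NWS library 3. Single entries of these lists did not all follow. A list of Cdx and ParaHox genes, homeobox genes related to the Hox clusters, had counts for 6 of 12 entries with depletion and 8 of 12 without. Its sum was 6.49, 5.05 and 0.714 CPM in the depleted NW libraries and 0, 0 and 11.97 CPM in NWS. Undepleted it was 4.20, 0 and 0.0737 CPM for NW against 0.201, 0 and 5.68 CPM for NWS. The depleted sums of NW libraries 1 and 2 rest on 13 and 2 counts. The floors of the depleted NW library 2 and NWS libraries 1 and 2 are 7.58, 5.89 and 4.30 CPM. The depleted place of NW library 1 above these libraries is therefore uncertain. The top entry, cdx2.S, had 1, 2 and 0 counts in the depleted NW and 0, 0 and 2 in the NWS libraries, and undepleted 8, 0 and 0 against 0, 0 and 14. Its copy cdx2.L had 8 counts in the depleted NW library 1 and 1 in NWS library 3, then 8 and 7 undepleted, and none elsewhere. The ParaHox gene pdx1 was at 0 in all libraries.

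A list of posterior mesoderm and tailbud genes had counts for 19 of 31 entries with depletion and 17 of 31 without. Its sum ran from 0 to 117 CPM over the depleted NW and from 5.89 to 34.1 CPM over the NWS libraries, and from 5.52 to 16.8 and 5.44 to 11.1 CPM undepleted. NW library 1 was highest and NWS library 3 next in each preparation. Counts for actc1.L and actc1.S, copies of the cardiac actin gene of embryonic muscle, came from NW library 1 alone, at 31 and 73 depleted and 26 and 22 undepleted. The muscle regulator gene myod1.S had 46 and 4 counts in NW library 1 and none elsewhere, but its copy myod1.L had 7 depleted counts there and 5 in NWS library 3, and 1 undepleted count in NW library 1. The related myf5.L and myf5.S gave at most 3 counts in a library, all in NW library 1 or NWS library 3. The most abundant of the list, the ligand gene wnt11.L, had 47, 0 and 209 counts in the depleted NW and 1, 0 and 20 in the NWS libraries, and 8, 7 and 120 against 6, 3 and 15 undepleted. The paraxial mesoderm gene tbx6.S had 22 and 20 counts in NW library 1, against at most 3 in any other library. NWS library 3 had no actc1 count in either preparation. The Brachyury entry t.S had 29 and 7 counts in NW library 3 and 3 and 19 in NWS library 3, and it was at 0 in NW library 1. Of the 37 depleted and 45 undepleted counts of the list in NWS library 3, wnt11.L gave 20 and 15 and t.S 3 and 19. The entries t.L, fgf4.L, fgf4.S, hand1.L, gata4.L and msgn1.L were at 0 in all 12 libraries. The epidermis list was also high in NW library 1, at 625 CPM depleted and 179 CPM undepleted, but NWS library 1 came next at 563 and 168 CPM and NWS library 3 was the lowest, at 38.7 and 10.9 CPM. The posterior mesoderm entries other than wnt11.L were chosen after their values were seen. The part of these tissues in the Hox split was not tested.

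**Figure D3:**
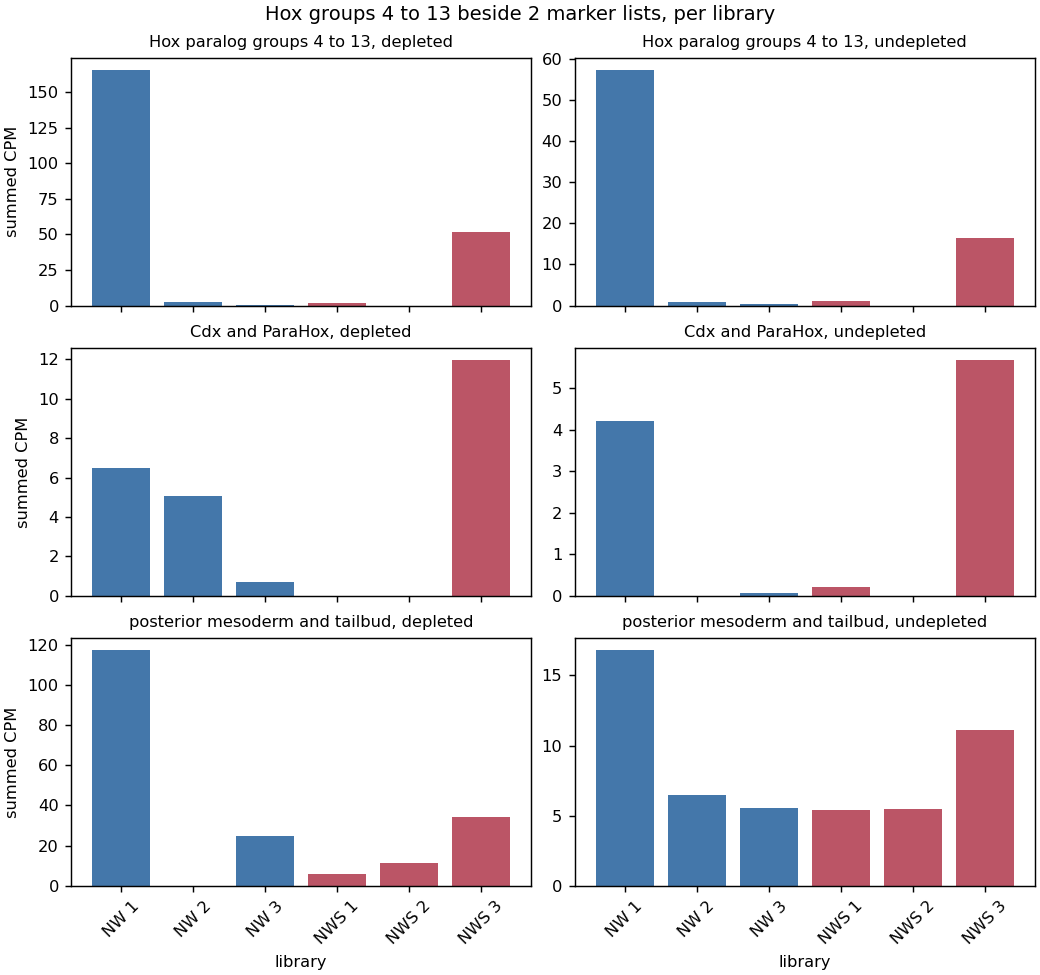
Summed CPM (y axis, linear, from 0) of Hox paralog groups 4 to 13, of the Cdx and ParaHox list and of the posterior mesoderm and tailbud list in each library (x axis; NW blue, NWS red), depleted on the left and undepleted on the right. NW 1 and NWS 3 have the 2 highest bars in every panel. The depleted Cdx and ParaHox bars of NW 1 and NW 2, at 6.49 and 5.05 CPM, rest on 13 and 2 counts.

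Group 1 was led by hoxb1, a gene of the hindbrain that is known for its expression in a single rhombomere. The S copy was the only one of the 54 entries with a count in all 12 libraries. It stood at 16.5, 22.7 and 20.3 CPM in the depleted NW libraries and at 43.2, 14.3 and 6.45 CPM in NWS, on 7 to 228 counts. Undepleted it stood at 1.64, 1.84 and 4.75 CPM in NW and at 6.04, 8.24 and 5.18 CPM in NWS, so the groups were separate there but not in the depleted set. Its log2 fold change was 0.08 ± 0.94 (SE) depleted and 1.13 ± 0.92 undepleted (edgeR adjusted p = 0.999 and 1.00), and the depleted value was below 0 in some other fits. The copy hoxb1.L stood at 4.99, 27.8 and 11.1 CPM in the depleted NW libraries and at 7.85, 0 and 0 CPM in NWS. That gave -2.63 ± 1.52 (edgeR adjusted p = 0.999). Undepleted it stood at 1.83, 4.60 and 1.95 CPM in NW and at 1.41, 4.58 and 0.247 CPM in NWS, with overlapping groups. The retinoic acid responsive gene hoxd1.S was rare and had 8 counts in the depleted NW library 3 and 3 and 1 in the undepleted NWS libraries 2 and 3.

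Among the 54 entries, group 2 was led by hoxb2.L and hoxa2.S, with 119 and 77 depleted and 82 and 84 undepleted counts. hoxa2 is the gene known to keep crest cells of the second pharyngeal arch from forming jaw elements. The entry hoxb2.L stood at 4.49, 35.4 and 8.38 CPM in the depleted NW libraries and at 0, 2.87 and 0 CPM in NWS. Undepleted it stood at 2.38, 3.68 and 2.25 CPM in NW and at 0.201, 0 and 0.740 CPM in NWS. The groups did not overlap in either preparation, NWS being lower, with an exact two-sided permutation p = 0.1 in each, the smallest that 3 against 3 libraries allow. The NWS values rest on 0 to 3 counts, and the floors of the depleted NWS libraries 1 and 2, 5.89 and 4.30 CPM, are near or above the NW library 1 level. Its copy, LOC733446 in the tables and hoxb2.S by RefSeq symbol, was outside the rule of names and had more counts than either, 146 depleted and 140 undepleted. It stood at 3.00, 30.3 and 9.36 CPM in the depleted NW and 3.92, 22.9 and 4.60 CPM in the NWS libraries, so the groups overlapped. With both copies summed hoxb2 had enough counts to be tested and gave -1.33 ± 1.04 depleted and -0.91 ± 0.97 undepleted (edgeR adjusted p = 0.999 in each). The entry hoxa2.S stood at 2.496, 15.2 and 4.64 CPM in the depleted NW and 1.96, 2.87 and 10.1 CPM in the NWS libraries, which overlap. Undepleted it stood at 1.10, 1.84 and 2.73 CPM in NW and at 0, 0 and 0.494 CPM in NWS, which do not. The floor of the undepleted NWS library 2, 2.75 CPM, is above each of these NW values. The copy hoxa2.L had 3 counts in all.

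Group 3 genes, which are active in the caudal hindbrain and in pharyngeal arches, had counts in all 3 NW libraries and few in NWS. Summed, they stood at 62.9, 55.6 and 15.4 CPM in the depleted NW libraries and at 0, 0 and 19.3 CPM in NWS. The groups overlapped there through NWS library 3, 1 of the 2 libraries rich in groups 4 to 13. Undepleted they stood at 19.4, 22.1 and 4.75 CPM in NW and at 2.01, 0.915 and 2.22 CPM in NWS, without overlap, or 15.4 ± 9.32 against 1.72 ± 0.702 CPM (SD, n = 3 each).

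Different entries of group 3 carried the different NW libraries. The entry hoxd3.S had 59, 0 and 25 counts in the depleted NW and 0, 0 and 10 in the NWS libraries, and undepleted 18 in NW library 1 and 1 in NWS library 3. Its copy hoxd3.L had 7, 0 and 0 against 0, 0 and 1 counts, and 12, 0 and 2 against 0, 0 and 2 undepleted. The entry hoxa3.L had 5, 0 and 70 counts in the depleted NW and 0, 0 and 6 in the NWS libraries, then 5, 0 and 29 against 1, 0 and 1 undepleted. hoxa3 is known for its part in the thymus and parathyroid glands of the mouse. Its S copy had 18, 0 and 7 counts against none in the depleted libraries, and 11, 1 and 8 against 0, 0 and 1 undepleted. The entry hoxb3.L had 6, 4 and 32 counts against 0, 0 and 2 depleted, and 34, 0 and 35 against 0, 1 and 2 undepleted. The entry hoxb3.S had 16, 2 and 25 counts against 0, 0 and 2 depleted, and 5, 2 and 20 against 9, 0 and 2 undepleted. The pair hoxb3.L and hoxb3.S separated the depleted groups, NWS being lower, and neither did so in the undepleted set. The depleted 0s of NWS libraries 1 and 2 have floors of 5.89 and 4.30 CPM. These floors lie above hoxb3.L in NW libraries 1 and 3 (3.00 and 2.85 CPM) and above hoxb3.S in NW library 3 (2.23 CPM). The separation of the pair is therefore uncertain. Library 2 of NW had no hoxa3.L and no hoxd3 count in either preparation.

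The hoxc3 pair was not detected in any NWS library. The entry hoxc3.S, a group 3 gene of cluster C that mammals have lost, had 0, 16 and 5 counts in the depleted and 20, 19 and 18 in the undepleted NW libraries, against 0 in all 6 NWS libraries. In CPM the NW libraries stood at 0, 40.4 and 0.446 depleted and at 3.65, 17.5 and 0.663 undepleted, so library 2 carried each mean. Against the mean floor of 3 counts per NWS library, NW was at least 3.15-fold higher depleted and at least 5.33-fold higher undepleted, which leaves out the spread between libraries. Without NW library 2 the depleted NW mean of 0.223 CPM lies under the floor of 4.32 CPM, which leaves no bound, and the undepleted bound is 1.58-fold. At the NW mean of 7.27 CPM the undepleted NWS libraries would have held 36.1, 7.94 and 29.4 counts. Without NW library 2 the undepleted mean of hoxc3.S falls to 2.16 CPM, and the expected counts fall with it. Its copy hoxc3.L had 15, 0 and 9 counts in the depleted and 1, 2 and 17 in the undepleted NW libraries, and none in NWS.

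In the undepleted libraries hoxc3.S did not pass the test (unadjusted p = 7.08e-04, edgeR adjusted p = 0.521, and 0.0697 with libraries of a number paired). Its fitted log2 fold change of -8.60 depends on the prior count because NWS is at 0, and is no estimate of size. It passed with DESeq2 (adjusted p = 0.0363), in edgeR without NW library 1 (adjusted p = 0.0225), and in edgeR with both preparations of a library summed and the numbers paired (adjusted p = 0.0461). Without NW library 2 the edgeR adjusted p was 0.733. The entry came through the filter on its NW counts alone, so a difference in this direction was built into its being tested. Those fits called 0.223%, 0.329% and 0.282% of all their tested entries. The low-count filter kept it out of the depleted test.

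**Figure D4:**
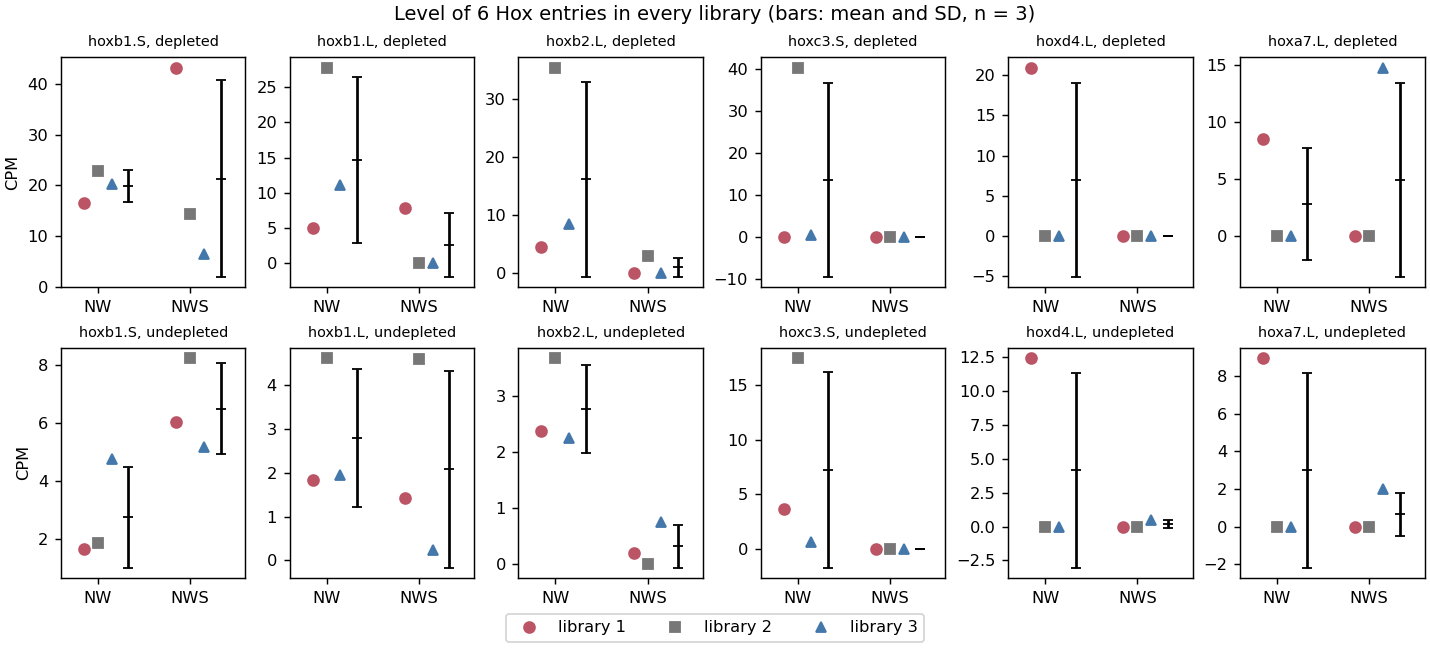
CPM (y axis, linear, own scale per panel) of 6 Hox entries in every library, depleted on top and undepleted below; circles, squares and triangles are libraries 1, 2 and 3, and the black bars give the mean and SD (n = 3), which can reach below 0. hoxb2.L and hoxc3.S are low or at 0 in NWS, hoxd4.L rests on NW library 1, and hoxa7.L on NW library 1 and NWS library 3.

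Groups 4 to 8 pattern the trunk in vertebrates. Of their 17 entries, 14 had a count in the depleted NW library 1, and in each preparation these entries gave at most 4 counts together in any library other than NW library 1 and NWS library 3. The entry hoxd4.L had 42 and 68 counts in NW library 1 (21.0 CPM depleted and 12.4 CPM undepleted), 2 in the undepleted NWS library 3 and none elsewhere. The entry hoxc4.L had 18 and 2 counts in NW library 1, and 1 and 3 in the undepleted NWS libraries 1 and 3. The entry hoxc5.L had 5 and 22 counts in NW library 1 and 1 in the undepleted NWS library 1. hoxc6.S had 36 and 14 counts in NW library 1 and 9 and 14 in NWS library 3, and none in the other 8. hoxc6 is used as a marker of the anterior trunk.

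Both copies of hoxa7 were among the most abundant trunk entries. The entry hoxa7.L had 17 and 49 counts in NW library 1 and 16 and 8 in NWS library 3, or 8.49 and 8.95 CPM against 14.7 and 1.97 CPM. Its S copy had 27 and 48 counts in NW library 1 and 5 and 6 in NWS library 3, and neither copy had a count in any other library. The entry hoxb7.L had 20 and 14 counts in NW library 1, and 2 and 6 in the undepleted NWS libraries 1 and 3, while hoxb7.S was at 0 throughout. hoxc8.S had 31 and 8 counts in NW library 1 and 18 and 3 in NWS library 3. NWS library 3 had no depleted count for group 4, at a floor of 2.76 CPM, and 6 undepleted counts for its entries hoxb4.L, hoxc4.L and hoxd4.L. It differed there from NW library 1, whose depleted group 4 sum was 32.0 CPM.

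Groups 9 to 13, which act in the posterior trunk, tail and limbs, were detected most in NW library 1. Their 21 entries gave 116 of its depleted and 74 of its undepleted counts, 5 and 17 counts in NWS library 3, and 0 to 4 in every other library. The entry hoxc9.L had 14 and 7 counts in NW library 1 and 2 and 8 in NWS library 3. hoxc10.L had 14 and 11 counts in NW library 1 and 1 in the undepleted NWS library 3. hoxd9.S had 10 and 11 counts in NW library 1 alone.

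Some posterior entries had counts in 1 preparation of NW library 1 and not in the other. hoxd10.L had 24 depleted counts there and 0 undepleted, and 2 in NWS library 3 in each preparation. hoxd10.S had 22 depleted and 1 undepleted count in NW library 1. hoxa11.L had 11 and 0. hoxd9.L went the other way with 0 depleted and 22 undepleted counts, and 1 in the undepleted NWS library 3. Of the 4 entries of group 11 and the 2 of group 12, none other than hoxa11.L had more than 6 counts in any library.

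**Figure D5:**
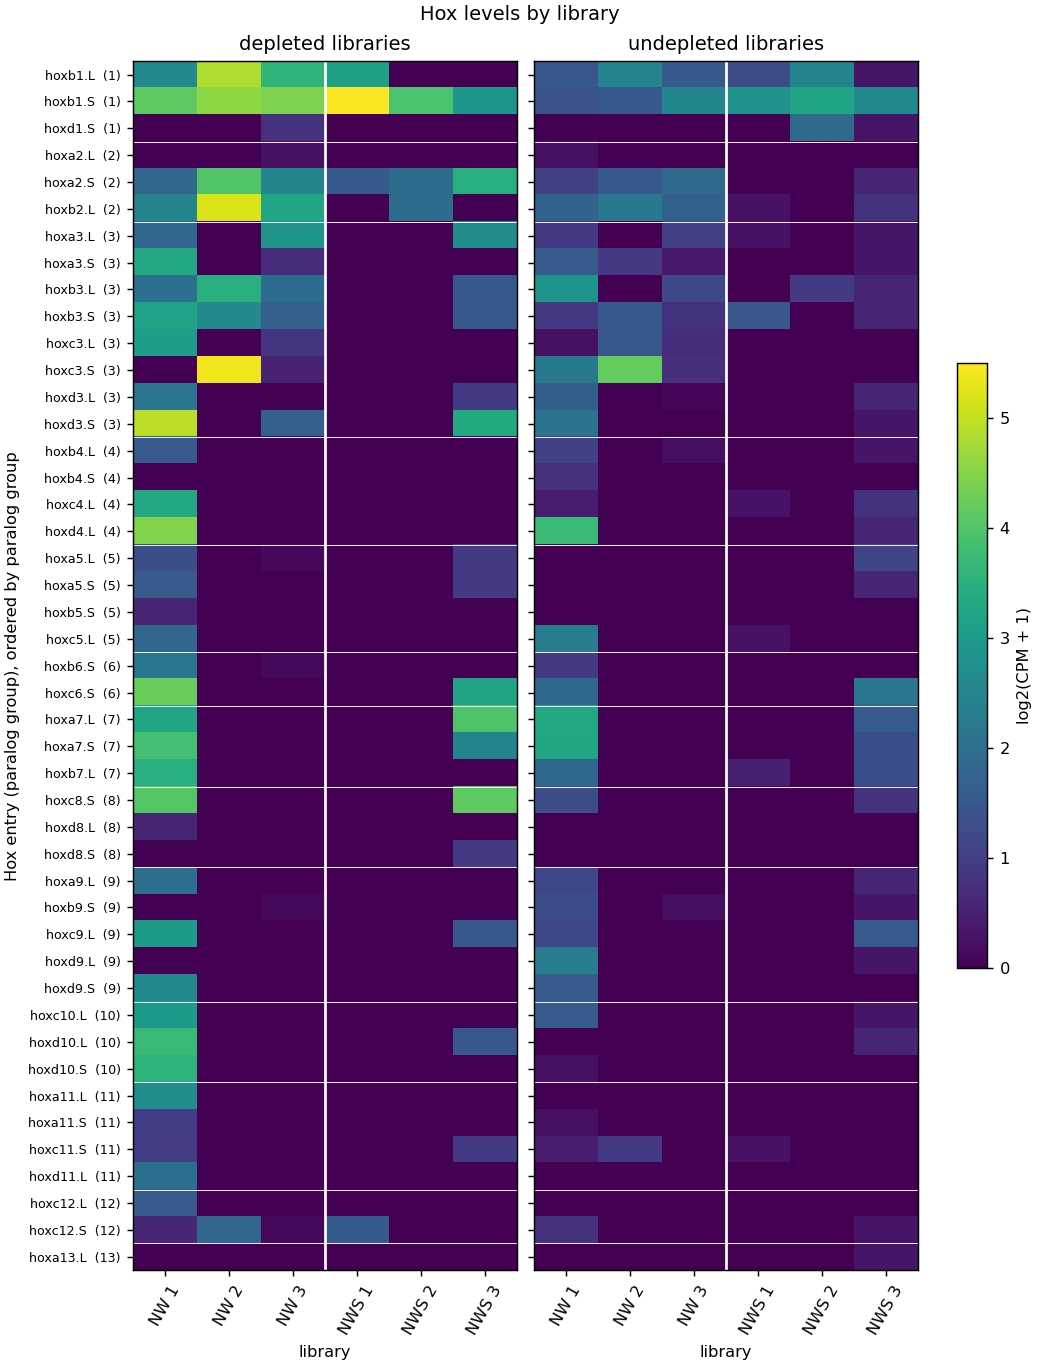
Level of Hox entries with a count in some library (rows, ordered by paralog group, given in brackets) in the 6 depleted and 6 undepleted libraries (columns), coloured by log2(CPM + 1), with white lines between paralog groups and between NW and NWS. NW 1 is coloured down to groups 11 and 12 in both preparations. NWS 3 is coloured down to group 11 depleted and, undepleted, down to group 10 with 1 count each in groups 12 and 13, while the other columns are nearly empty below group 3.

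Over all 12 libraries 46 of the 54 entries had a count, 42 with depletion, 40 without it and 36 in both preparations. Among the 8 at 0 throughout were hoxb7.S, hoxa9.S, hoxa13.S and both copies of hoxc13 and hoxd13. The 27 entries with 10 or more counts in some library are those given by library above. The 19 other detected entries had at most 9 counts in any library.

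On a scale that takes length into account, the authors' FPKM, the leading entry among the 54 differed between libraries of a treatment. In the depleted NW library 1 it was hoxc6.S at 10.4 FPKM, ahead of hoxd10.L at 7.43, hoxb1.S at 7.32 and hoxd4.L at 7.04 FPKM. In NW library 2 it was hoxc3.S at 14.6 FPKM, and in NW library 3 hoxb1.S at 8.45 FPKM. In the NWS libraries 1 and 2 it was hoxb1.S, at 19.8 and 6.03 FPKM, and in NWS library 3 hoxa7.L at 7.28 FPKM, ahead of hoxa2.S at 6.28 and hoxc8.S at 6.22 FPKM. Undepleted, hoxb1.S led in NW library 3 and in all NWS libraries, at 2.00, 2.90, 3.77 and 2.39 FPKM, while hoxa7.L led in NW library 1 at 4.61 and hoxc3.S in NW library 2 at 6.45 FPKM. With the 9 entries outside the rule of names included, LOC733446 (hoxb2.S) came first in the depleted NW library 2 at 16.3 FPKM, in the depleted NWS library 2 at 11.7 FPKM and in the undepleted NW library 3 at 2.08 FPKM. These orders rest on few counts (9 to 228 for the leading entries), and neighbours such as hoxb1.S and hoxd4.L differ by less than counting error.

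The L and S copies were used unevenly in some genes. For hoxa2 the S copy held 77 of 79 depleted counts, and its FPKM was above that of the L copy in 6 of 6 depleted and 4 of 6 undepleted libraries, the others being at 0 for both. For hoxb1 the S copy was above the L copy in FPKM in 5 of 6 depleted and 4 of 6 undepleted libraries. The L copy was ahead in NW library 2 of both preparations and in the undepleted NW library 1, where the values were 0.86 and 0.79 FPKM. For hoxc3 the depleted NW library 1 had 2.46 FPKM of L and 0 of S, NW library 2 had 0 of L and 14.6 FPKM of S, and NW library 3 had 0.25 FPKM of L and 0.15 of S. In the undepleted NW libraries S was above L in all 3, at 1.42, 6.45 and 0.23 against 0.06, 0.62 and 0.19 FPKM, so NW library 1 went opposite ways in its preparations. Reads of homeologs can be split or lost where the copies are alike, so single copies are uncertain, and no test between copies was made.

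For most Hox entries the counts were too few for a test of the morpholino. The low-count filter left 2 entries in each preparation, both hoxb1 copies depleted, and hoxb1.S with hoxc3.S undepleted. In the depleted libraries 0 of the 2 had an adjusted p under 0.05 in edgeR, as against 0.0% of all 6585 tested entries, and 0 had an unadjusted p under 0.05. In the undepleted libraries 0 of 2 passed, as against 0.0159% of 6284, and hoxc3.S was the 1 with an unadjusted p under 0.05. Over all tested entries, 245 of 6585 depleted and 253 of 6284 undepleted had an unadjusted edgeR p under 0.05. With libraries of a number paired, again 0 passed in either preparation, as against 0.197% and 0.223% of all entries. DESeq2 called 0 of 10 Hox entries depleted and 1 of 8 undepleted, where it called 9 of 9840 and 19 of 8502 entries. With limma-voom 0 Hox entries were called in each, where 2 of 6585 and 1 of 6284 entries were. Without the filter 42 and 40 entries were fitted, 3 and 5 had an unadjusted p under 0.05 and 0 passed, where 0.0725% and 0.102% of all entries did. Of all entries in these edgeR fits, 1614 of 27582 and 1444 of 28381 had an unadjusted p under 0.05. The Hox entry closest to passing was the undepleted hoxc3.S (edgeR adjusted p = 0.0568).

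Counted by separation alone, 3 of the 54 entries had all depleted NWS libraries below all NW libraries, namely hoxb2.L, hoxb3.L and hoxb3.S, where 3.2% of all entries with a count were. In the undepleted libraries 5 were lower, namely hoxb2.L, hoxa2.S, hoxa3.S, hoxc3.L and hoxc3.S, where 2.69% were. One was higher, hoxb1.S, where 1.93% were. Of the 42 and 40 Hox entries with a count these are 7.14%, 12.5% and 2.5%. An entry at 0 in some library of each group cannot separate, and most of these values rest on few counts. Some NWS 0s have floors above NW levels, as given for hoxb2.L, hoxa2.S and the hoxb3 pair. All 8 lower cases are entries of groups 2 and 3. An entry can be lower in this sense only with a count in every NW library. NW library 2 held 1 count of groups 4 to 13 in each preparation, so the absence of these groups here was nearly fixed beforehand. hoxb2.L was the one entry that was separated in both preparations.

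The sum of groups 1 to 3 was 103 ± 48.9 CPM in the depleted NW and 36.3 ± 16.5 CPM in the NWS libraries (SD, n = 3 each), with the lowest NW library at 60.8 and the highest NWS library at 53.0 CPM. Undepleted it was 25.7 ± 8.84 and 12.5 ± 3.54 CPM, with the lowest NW library and the highest NWS library level at 16.4 and 16.5 CPM. Set beside the NW library of its own number, each NWS library had the smaller sum, in 3 of 3 cases with and without depletion. The labels do not give this link, and in the separate depleted groups any matching of libraries gives the same. Undepleted, NW library 3 with NWS library 2 is the only match that goes the other way, at 16.4 and 16.5 CPM. The pairs therefore add little to the group levels. The depleted pairs stood at 91.4 and 53.0, 157 and 20.1, and 60.8 and 35.9 CPM for NW and NWS, and the undepleted pairs at 26.5 and 9.67, 34.0 and 16.5, and 16.4 and 11.4 CPM. Within it, groups 1 to 2 came to 58.3 ± 38.0 CPM for NW against 29.9 ± 20.1 CPM for NWS depleted and to 10.3 ± 2.71 against 10.8 ± 4.20 CPM undepleted, and the libraries overlapped in both preparations. By cluster, the B sum came to 66.4 ± 30.3 CPM for NW against 26.1 ± 21.9 CPM for NWS depleted and to 14.3 ± 4.70 against 10.9 ± 2.47 CPM undepleted. The A, C and D sums overlapped as the B sum did, in both preparations.

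The preparations could be compared in 12 Hox entries. Within NW, undepleted against depleted, log2 fold changes ran from -1.46 to 1.77, with 0 of 12 passing in edgeR and 0 at an unadjusted p under 0.05, as against 0.0227% of 13224 entries that passed. An unadjusted edgeR p under 0.05 was found in 155 of the 13224. The difference of the morpholino effect between preparations also passed in 0 of 12, with 0 at an unadjusted p under 0.05, as against 0.0% of 13224 entries that passed. For this difference 231 of the 13224 had an unadjusted edgeR p under 0.05.

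Among the genes that work with Hox proteins or act upstream of them, no tested entry passed, with or without pairing. Of 14 entries for TALE cofactors of Hox proteins, 9 were tested, with 6 higher and 3 lower in NWS depleted (median log2 fold change 0.83) and 5 higher and 4 lower undepleted (0.01). The medians over all tested entries were -0.03 and -0.04. The most abundant, meis3.S, a posterior neural gene that binds DNA with Hox proteins, stood at 18.0, 42.9 and 54.9 CPM in the depleted NW and 64.8, 108 and 116 CPM in the NWS libraries. Its log2 fold change was 1.32 ± 0.70 depleted and 0.79 ± 0.71 undepleted (edgeR adjusted p = 0.999 and 1.00). Of 28 retinoic acid pathway entries 9 were tested, with 6 higher and 3 lower depleted and 7 higher and 2 lower undepleted (medians 0.27 and 0.45). The leading one, cyp26c1.L, for an enzyme that degrades retinoic acid, gave 0.48 ± 0.65 and 0.13 ± 0.61 (edgeR adjusted p = 0.999 and 1.00).

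Of 25 hindbrain patterning entries 7 were tested depleted, with 1 higher and 6 lower (median -1.17), and 8 undepleted, with 2 higher and 6 lower (-0.81). The regulators mafb.L, known to act on group 3 Hox genes in the mouse hindbrain, and egr2.L were chosen after their values were seen. The depleted mafb.L stood at 34.4, 205 and 15.4 CPM in NW and at 1.96, 2.87 and 56.2 CPM in NWS. Its part in the group 3 levels was not tested. The depleted egr2.L stood at 39.4, 131 and 11.4 CPM in NW and at 0, 40.1 and 89.3 CPM in NWS. The most abundant of the list, wnt1.L, gave 1.12 ± 0.79 depleted and 0.03 ± 0.70 undepleted (edgeR adjusted p = 0.999 and 1.00).

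The remaining lists are given by their counts. Of 33 neural crest entries 32 were tested, with 8 higher and 24 lower depleted (median -0.69) and 7 and 25 undepleted (-0.88). Over all tested entries 3392 of 6585 were lower depleted and 3271 of 6284 undepleted. In the unpaired fits 0 crest entries passed in either preparation. With pairing 2 passed as lower in each preparation, id3.L and id3.S depleted (edgeR adjusted p = 0.0386 and 0.0106) and id3.L and sox10.S undepleted (edgeR adjusted p = 0.0167 and 0.0126), where 0.197% and 0.223% of all tested entries passed in either direction. The leading entry tfap2c.L gave -0.39 ± 0.65 and -0.21 ± 0.65 (edgeR adjusted p = 0.999 and 1.00). Neural plate entries were tested in 11 of 17 depleted, with 7 higher and 4 lower, and in 12 undepleted, with 6 each way. Epidermis entries were tested in 6 of 19 depleted, with 4 higher and 2 lower, and in 7 undepleted, with 4 higher and 3 lower, and krt12.S led with -1.29 ± 1.13 and -0.68 ± 1.16 (edgeR adjusted p = 0.999 and 1.00). From the posterior mesoderm list 1 entry was tested, wnt11.L in the depleted libraries, at -1.03 ± 1.26 (edgeR adjusted p = 0.999). No entry of the Cdx, anterior neural or endoderm lists had enough counts. Their leading entries besides cdx2.S were pax6.L, with at most 19 counts in a library, and gata6.S, with at most 23.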

How the data were processed

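Upstream tools were STAR, featureCounts, bcl2fastq and DESeq2 per the submitters' processing notes, which give no versions. For genome build, annotation and strand setting no source used here has an entry. For each preparation the authors deposited raw counts per gene and library with the lanes added up. They also deposited FPKM values, whose scale matches the median-of-ratios size factors from these counts (largest difference 0.00119% depleted and 0.00388% undepleted). The 30 sequencing runs are lanes of 12 libraries, grouped and numbered by their titles. The title numbering was followed for the undepleted NWS group, where the source names number otherwise.

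Of the 54 entry names, 48 are symbols of the RefSeq table used here (build Xenopus_laevis_v10.1), which served for names alone. No sequence is printed, since none was in the files used. The Hox entries and the gene lists were chosen with earlier results of these data known. All Hox entries are accounted for, those with 10 or more counts in a library or passing the filter by library. Of each other list the direction counts, the entries that passed and the entry with the highest mean CPM are given. Outside this rule stand cdx2.L, pdx1, mafb.L, egr2.L and the posterior mesoderm entries other than wnt11.L, chosen after their values were seen. One Hox gene and 1 leading list entry are exceptions and are not reported here.

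The tests on counts used edgeR 4.0.16 under R 4.3.3 (TMM, filterByExpr with a minimum count of 10, quasi-likelihood fit of the group within each preparation, Benjamini-Hochberg adjusted p under 0.05 over all tested entries). Both preparations were fitted together for their contrast and for the interaction. DESeq2 1.42.0 and limma-voom 3.58.1 were alternatives. Single entries had exact permutation tests, two-sided, in 8 depleted and 14 undepleted entries with counts in enough libraries. Shares have exact binomial intervals at a confidence level of 0.95 (SciPy 1.17.1), and figures used matplotlib 3.10.9. Library totals were 351902 to 3570364 counts depleted and 3499960 to 4339788 undepleted, and 115281 to 2809455 and 87172 to 2042925 outside the 4 and 5 entries above 0.5% of a library.

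The labels do not say whether a library number links NW with NWS libraries. Same-numbered libraries had deviations from their group means that correlated at 0.138, 0.247 and 0.154 depleted and 0.210, 0.244 and 0.131 undepleted. Libraries of unlike number correlated at -0.187 to 0.064 depleted and at -0.215 to 0.059 undepleted. The same-number values are the higher ones in both preparations. They are still low and come from the same data, so they do not settle whether the numbers are pairs. The main fits were unpaired, and fits with the numbers taken as pairs were run beside them.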

Additional observations from a re-analysis of the deposited data

How the results depend on the processing

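The number of Hox entries that passed for the morpholino was 0 in each preparation. It was 1, hoxc3.S, with DESeq2 undepleted. It was also 1, again hoxc3.S, in the single fit of both preparations summed with a replicate block (a fit chosen after seeing the data). With each library left out in turn it ran from 0 to 1 undepleted, the 1 being without NW library 1, and stayed at 0 depleted. With the replicate block alone it was 0 in both. For the preparation contrast and the interaction it was 0 under the alternatives run. Over all entries the number called ran from 0 to 24 depleted and from 1 to 29 undepleted. With both preparations summed it was 0, and 26 with the replicate block added. The depleted hoxb1.S (0.08) turned to -0.011 with no low-count filter, -0.46 with limma-voom and -0.29 with the replicate block, and ran from -0.90 to 0.52 with a library left out, lowest without NWS library 1. The cause was not tested. The log2 ratio of summed Hox levels kept its sign, from -2.08 to -1.02 depleted and -1.74 to -0.49 undepleted, and 3 entries depleted and 6 undepleted separated the groups under each scaling, deposited FPKM included. Depth limits most of the rest: 52 of the 54 entries were below the low-count filter in each preparation, 3 against 3 libraries cannot give a permutation p under 0.1, and a 0 in the shallowest library allows up to 7.58 CPM.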
